A study of Mus musculus with 6 samples.

Results

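The myoblast fusion machinery was followed here as 10 genes out of the 46078 listed in the count table. The genes were taken by name: the fusogens *Mymk* and *Mymx*, the recognition proteins *Kirrel*, *Nphs1* and *Jam2*, and the Rac pathway genes *Dock1*, *Dock5*, *Elmo1*, *Elmo2* and *Rac1*. The table lists *Mymk* under its older name *Tmem8c* and *Mymx* as *Gm7325*. RNA had been sequenced from C2C12 cells, an immortalized line of mouse myoblasts that fuse into multinucleated myotubes once serum is withdrawn. 3 libraries came from Hnrnpa2b1 knockout cells (KO) and 3 from wild-type cells (WT), and all 6 were made after 2 days of differentiation. The knockout had been made with Cas9 and puromycin selection, and the study's methods describe 3 independent clones of each genotype picked by cloning ring. Which clone gave which library is not stated, so a difference between KO and WT may carry differences between clones, and each p-value measures the spread between these libraries.

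Vertebrate myoblasts fuse in ordered steps. Immunoglobulin-family proteins on the cell surface let neighbours recognise each other, the Dock and Elmo proteins then activate the small GTPase Rac1 to remodel cortical actin, and Myomaker and Myomixer, the products of *Mymk* and *Mymx*, finally merge the lipid bilayers. *Mymk* and *Mymx* are switched on by myogenic basic helix-loop-helix factors during differentiation. Fusion is what turns mononucleated myocytes into myotubes in development and in regenerating muscle.

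The 6 libraries held between 33605258 and 40558740 counts, and 3 counts, taken as the floor of detection, came to between 0.0687 and 0.0914 counts-per-million (CPM), which were TMM-scaled here to adjust for composition. The targeted gene *Hnrnpa2b1* was at 159, 195 and 248 CPM in KO1, KO2 and KO3 and at 225, 229 and 252 CPM in WT1, WT2 and WT3, and its RNA did not pass the test (log2 fold change -0.23 ± 0.18 SE, adjusted p = 0.381). An edit that disrupts the reading frame can leave RNA in place, so this level is a weak check of the labels and the libraries are named as labelled. The KO libraries differed more among themselves than the WT libraries did, with a chi-square per degree of freedom of 154 to 171 between pairs of KO libraries and 46.6 to 78.3 between pairs of WT libraries. By the correlation of log2 CPM across genes, KO2 and KO3 were closer to each other (r = 0.977) than either was to KO1 (0.964 for both), whereas the chi-square put KO2 and KO3 about as far apart as KO1 and KO3. The number of genes called with all libraries, 3361 of 14828, became 4712 of 15409 without KO1, 933 without WT1 and 1288 without WT3. In the fit without KO1, 30.6% of all genes were called.

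9 of the 10 genes could be tested, and 2 of them differed between KO and WT, *Kirrel* and *Elmo2*, both higher in KO. Over all 14828 genes tested the same rule called 22.7% in either direction and 12.1% as higher in KO, so the count of 2 in 9 is close to the background. The rule was an adjusted p under 0.05 in edgeR's quasi-likelihood test with Benjamini-Hochberg adjustment over all genes. 8 of the 9 had a log2 fold change above 0 and their median was 0.32, where 52.3% of all tested genes were above 0 and their median was 0.03. 2 of the 8, *Mymk* and *Mymx*, were at 0.06 in counts and below 0 in TPM. In transcripts-per-million (TPM), a measure that corrects for gene length, 8 of the genes could be tested with limma and 1, *Kirrel*, was called, against 20.5% of 11691 genes in either direction and 8.59% as higher in KO. In bulk RNA, fewer cells of a type and less RNA per cell cannot be told apart.

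**Figure D1:**
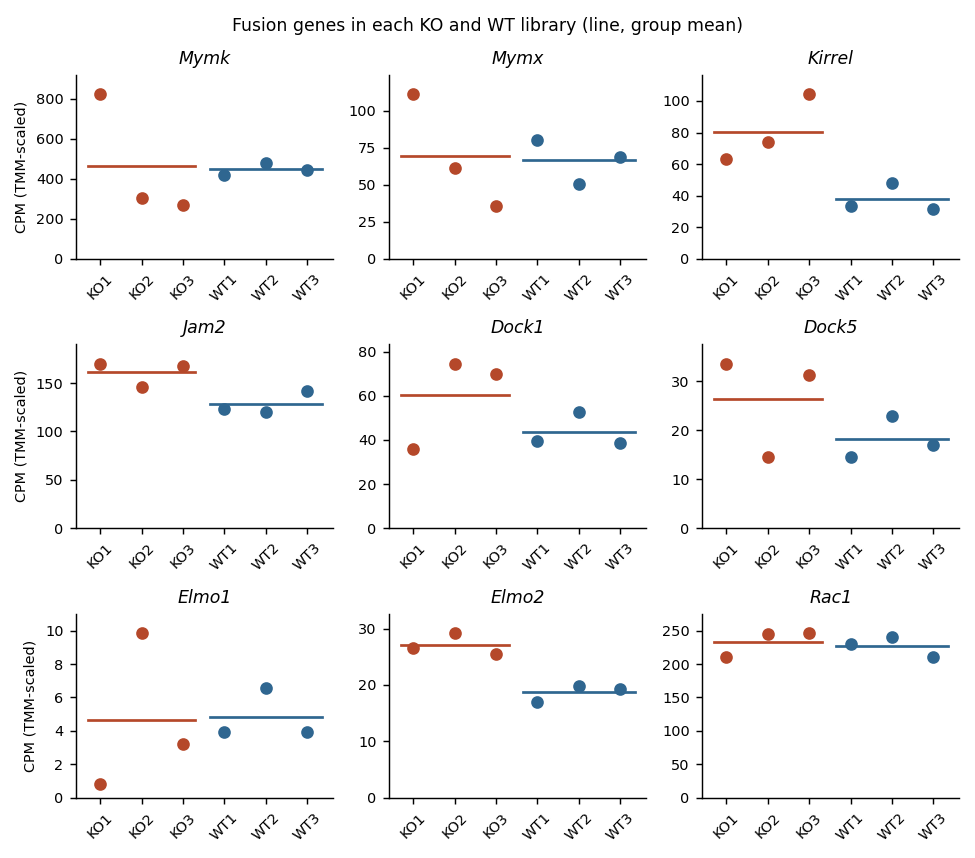
Each panel gives 1 fusion gene, with TMM-scaled CPM on a vertical axis that starts at 0, a point for each KO (red) and WT (blue) library and a line at each group's mean. The KO points lie above all WT points for *Kirrel*, *Jam2* and *Elmo2*, as they do for 22.7% of all tested genes. For *Mymk* and *Mymx* KO1 is above all WT points and KO3 is below them.

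The fusogens had nearly equal group means, and this equality hid a wide spread within KO. *Mymk* (ENSMUSG00000009214, chr2:27061636-27072179, minus strand, GRCm38) encodes Myomaker, the transmembrane protein that both fusing cells need. It was at 822, 302 and 269 CPM in KO1, KO2 and KO3 and at 418, 478 and 442 CPM in WT1, WT2 and WT3. KO1 was above every WT library and KO2 and KO3 were below every WT library. The highest KO library exceeded the lowest 3.06-fold, compared with 1.14-fold among WT libraries. On the log2 CPM scale the SD of *Mymk* was 0.89 in KO, at percentile 91.6 of all tested genes, and 0.10 in WT, at percentile 20.8. The log2 fold change over all 6 libraries was 0.06 ± 0.40 (SE, adjusted p = 0.929) in counts and -0.15 ± 0.33 (SE, adjusted p = 0.776) in TPM.

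Without KO1 the call for *Mymk* changed. KO2 and KO3 against the 3 WT libraries gave a log2 fold change of -0.65 (adjusted p = 0.0167) in counts and -0.58 (adjusted p = 0.0397) in TPM. No other library had this effect on *Mymk*, whose log2 fold change ran from 0.0064 to 0.34 when any of the other 5 was left out.

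*Mymx* (ENSMUSG00000079471, chr17:45600967-45602102, minus strand) encodes Myomixer, the micropeptide that acts after Myomaker to complete membrane merger. It was at 111, 61.4 and 35.4 CPM in KO1, KO2 and KO3 and at 80.5, 50.1 and 68.5 CPM in WT1, WT2 and WT3. KO1 was the highest of the 6 libraries and KO3 the lowest, and KO2 lay within the WT range. Its log2 fold change was 0.06 ± 0.38 (SE, adjusted p = 0.918), and -0.46 (adjusted p = 0.228) without KO1. The ratio of *Mymx* to *Mymk* in TPM was 0.227, 0.342 and 0.217 in KO1, KO2 and KO3 and 0.321, 0.173 and 0.258 in WT1, WT2 and WT3. Its group means, 0.262 ± 0.0694 and 0.251 ± 0.0742 (SD, n = 3 each), differed by less than the spread between libraries (exact two-sided permutation p = 0.9, where 3 against 3 cannot go below 0.1).

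The genes whose levels followed the fusogens most closely across the 6 libraries were found by the mean absolute difference of log2 CPM, after each gene was centred on its own mean, among 8964 genes whose log2 CPM averaged 3 or more. For *Mymk* these were *Mybph*, which encodes a sarcomeric myosin-binding protein (0.10), *Cgref1* (0.12), the skeletal muscle actin *Acta1* (0.14), *Chn1*, a GTPase-activating protein for Rac (0.15), and *Kctd9* (0.15). *Mybph* was at 1126 CPM in KO1, 361 and 371 CPM in KO2 and KO3, and 570 to 619 CPM in WT. *Acta1* was at 7017 CPM in KO1, 2551 and 2302 CPM in KO2 and KO3, and 2955 to 4185 CPM in WT. Both put KO1 above and KO2 and KO3 below all WT libraries, a likeness to *Mymk* that follows from how they were chosen. For *Mymx* the closest were the RNA polymerase subunit gene *Polr2f* (0.13), the slow troponin gene *Tnnt1* (0.14), *Uqcc1*, an assembly factor of mitochondrial complex III (0.14), *Hfe2*, which encodes hemojuvelin (0.15), and *Slc35e4* (0.16). *Tnnt1* was at 1364, 781 and 611 CPM in KO1, KO2 and KO3 and at 651 to 923 CPM in WT. These are descriptions over 6 shared libraries and were not tested.

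**Figure D2:**
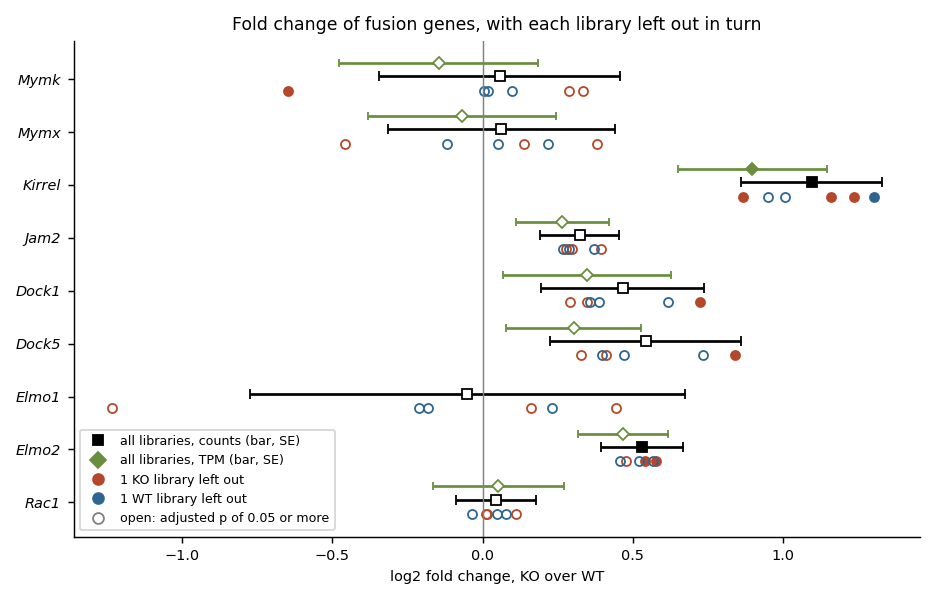
The horizontal axis gives, for each tested fusion gene, the log2 of its KO level over its WT level, from counts (squares) and from TPM (diamonds) with bars of 1 SE, and with circles for the counts with 1 library left out in turn; filled symbols have an adjusted p under 0.05. *Mymk* spans -0.65 to 0.34 and *Elmo1* -1.23 to 0.44 depending on which library is missing, while *Kirrel* stays between 0.87 and 1.30 and *Elmo2* between 0.46 and 0.58.

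Among the recognition genes, *Kirrel* rose in KO. *Kirrel* (ENSMUSG00000041734, chr3:87078593-87174747, minus strand) encodes an immunoglobulin-superfamily adhesion protein, a vertebrate relative of the *Drosophila* fusion receptors Duf and Rst. It was at 63.2, 74.0 and 104 CPM in KO1, KO2 and KO3 and at 33.5, 48.2 and 31.3 CPM in WT1, WT2 and WT3. All 3 KO libraries were above all 3 WT libraries, as they were for 22.7% of all tested genes. The difference was 2.14-fold (log2 fold change 1.10 ± 0.23 SE, adjusted p = 0.0165) in counts and 1.86-fold on the log2(TPM + 1) scale (log2 0.90 ± 0.25 SE, adjusted p = 0.0359). The call in counts was lost without WT1 (adjusted p = 0.0807) or WT3 (0.0757), and that in TPM without WT1 (0.134), WT3 (0.125), KO2 (0.0521) or KO3 (0.0751). With no low-value filter the call in TPM was lost too (0.143). Within its family *Kirrel* held 91.4%, 90.9% and 94.6% of the summed TPM of *Kirrel*, *Kirrel2* and *Kirrel3* in KO1, KO2 and KO3 and 90.9%, 88.1% and 87.9% in WT1, WT2 and WT3. The groups overlapped in this share in TPM (exact two-sided permutation p = 0.2). In CPM they did not, at 94.6% to 97.2% in KO and 92.8% to 93.5% in WT (exact two-sided permutation p = 0.1, the smallest possible).

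*Nphs1* was not detected at the depth of these libraries. *Nphs1* (ENSMUSG00000006649, chr7:30458315-30487223, plus strand) encodes nephrin, the kidney slit-diaphragm protein that binds Kirrel proteins and is a relative of the *Drosophila* receptor Sns. A single count lay in KO2 and none in the other 5 libraries, and the TPM was listed at 0 in all 6.

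*Jam2* had all 3 KO libraries above all 3 WT libraries, as did 22.7% of all tested genes, but did not pass the test. *Jam2* (ENSMUSG00000053062, chr16:84774123-84825928, plus strand) encodes a junctional adhesion molecule that pairs with Jam3 on the opposite cell, a pairing needed for fusion in zebrafish. It was at 170, 146 and 167 CPM in KO1, KO2 and KO3 and at 124, 120 and 142 CPM in WT1, WT2 and WT3. Its log2 fold change was 0.32 ± 0.13 (SE, adjusted p = 0.110) and stayed between 0.27 and 0.39 whichever library was left out. In TPM it was 0.27 ± 0.16 (SE, adjusted p = 0.250) and fell to 0.14 without KO3. Its partner *Jam3* fell to 10.6, 14.5 and 21.8 CPM in KO1, KO2 and KO3 from 49.1, 23.3 and 55.6 CPM in WT1, WT2 and WT3 (log2 fold change -1.45 ± 0.37 SE, adjusted p = 0.0280). This call was lost without KO2, WT1 or WT3.

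The balance of this receptor pair separated the groups. *Jam2* made up 87.9%, 81.8% and 77.7% of the summed TPM of *Jam2* and *Jam3* in KO1, KO2 and KO3 and 54.3%, 70.6% and 54.6% in WT1, WT2 and WT3. The lowest KO library was above the highest WT library. The mean share was 82.5% ± 5.13 in KO and 59.8% ± 9.32 in WT (SD, n = 3 each), a difference of 22.7 percentage points that stayed between 19.9 and 28.0 with any library left out. In CPM, with no correction for length, the difference was 15.4 points. The exact two-sided permutation p was 0.1, the smallest that 3 against 3 allows, and 0.6 after Benjamini-Hochberg adjustment over the 6 shares and ratios computed.

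**Figure D3:**
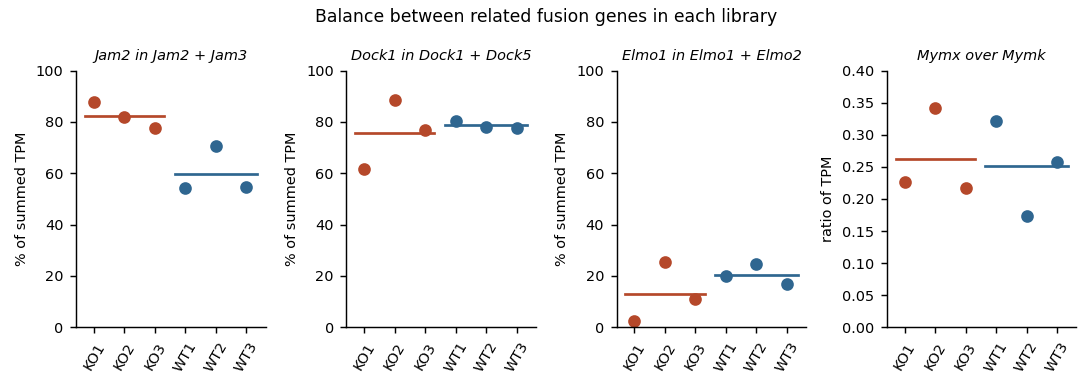
The panels plot, for each KO (red) and WT (blue) library, the share of *Jam2*, *Dock1* and *Elmo1* in the summed TPM of the named pair (percent) and the ratio of *Mymx* to *Mymk* TPM, with lines at the group means. The *Jam2* share is 77.7% or more in KO and 70.6% or less in WT, and in the other panels the groups overlap.

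In the Rac pathway *Elmo2* rose in KO, and the other 4 genes did not pass the test with all libraries. *Dock1* (ENSMUSG00000058325, chr7:134670687-135173639, plus strand) encodes the guanine nucleotide exchange factor that loads Rac with GTP, and mice without it have defects in myoblast fusion. *Dock1* was at 36.1, 74.5 and 69.9 CPM in KO1, KO2 and KO3 and at 39.4, 52.7 and 38.6 CPM in WT1, WT2 and WT3. KO2 and KO3 were above every WT library and KO1 was below every WT library, the mirror image of *Mymk*. The log2 fold change was 0.47 ± 0.27 (SE, adjusted p = 0.240) with all libraries, and 0.72 (adjusted p = 0.0142) in counts and 0.68 (adjusted p = 0.0242) in TPM without KO1.

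*Dock5* (ENSMUSG00000044447, chr14:67751928-67933572, minus strand), a paralog of *Dock1* with the same exchange activity, was at 33.6, 14.6 and 31.3 CPM in KO1, KO2 and KO3 and at 14.6, 22.9 and 17.0 CPM in WT1, WT2 and WT3. KO1 and KO3 were above all WT libraries and KO2 was level with the lowest of them. Over all libraries its log2 fold change was 0.54 ± 0.32 (SE, adjusted p = 0.242), and 0.84 (adjusted p = 0.0345) without KO2. In TPM it was 0.30 ± 0.23 (SE, adjusted p = 0.360), and 0.55 (adjusted p = 0.0869) without KO2, so no call was gained there. Without KO3 the value in TPM fell to 0.14. *Dock1* made up 61.7%, 88.7% and 77.0% of the summed TPM of *Dock1* and *Dock5* in KO1, KO2 and KO3, a wider spread than the 77.7% to 80.2% in WT. The mean share was 75.8% ± 13.5 in KO and 78.6% ± 1.38 in WT (SD, n = 3 each, exact two-sided permutation p = 0.7). Without KO1 4 of the fusion genes were called, *Kirrel*, *Elmo2* and *Dock1* as higher and *Mymk* as lower, against 30.6% of all genes in that fit.

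*Elmo1* and *Elmo2* encode the scaffolds that bind Dock proteins and bring them to the membrane, and the pair behaved differently across the libraries. *Elmo1* (ENSMUSG00000041112, chr13:20090596-20606528, plus strand) was at 0.811, 9.84 and 3.22 CPM in KO1, KO2 and KO3, from 29, 430 and 132 counts. It was at 3.93, 6.58 and 3.91 CPM in WT1, WT2 and WT3. The KO libraries differed 12.1-fold from lowest to highest, and their SD of log2 CPM, 1.76, was at percentile 98.9 of all tested genes. The log2 fold change was -0.05 ± 0.73 (SE, adjusted p = 0.967) with all libraries, 0.44 (adjusted p = 0.488) without KO1 and -1.23 (adjusted p = 0.170) without KO2, so its direction rested on single libraries.

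*Elmo2* (ENSMUSG00000017670, chr2:165288031-165326479, minus strand) was at 26.5, 29.2 and 25.4 CPM in KO1, KO2 and KO3 and at 17.0, 19.9 and 19.2 CPM in WT1, WT2 and WT3. All KO libraries were above all WT libraries, as they were for 22.7% of all tested genes. The SD of log2 CPM in KO, 0.10, was at percentile 10.8 of all genes. The difference was 1.45-fold (log2 fold change 0.53 ± 0.14 SE, adjusted p = 0.0294). In TPM it was 0.47 ± 0.15 (SE) on the log2(TPM + 1) scale and missed the threshold (adjusted p = 0.0573). The call in counts was lost without KO2 (adjusted p = 0.0642), WT1 (0.139), WT2 (0.0595) or WT3 (0.0998). It was also lost with a replicate block (0.0632) or with no low-count filter (0.0653). *Elmo1* made up 2.50%, 25.2% and 10.8% of the summed TPM of the pair in KO1, KO2 and KO3 and 19.9%, 24.6% and 17.0% in WT1, WT2 and WT3 (exact two-sided permutation p = 0.4).

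Genes around *Elmo2* shifted by a like amount in their median but differed widely from each other. 90 other genes tested lie within 5 Mb of its start, and their median log2 fold change was 0.53, the same to 2 decimals as that of *Elmo2*. Single genes ran from -1.98 (*Nfatc2*) to 5.48 (*R3hdml*), and 70 of the 90 were above 0. 31 of the 90 were called higher in KO and none lower, which makes 34.4% called where all genes gave 22.7%. The median deviation of these genes from their WT means was 0.46, 0.43 and 0.45 on the log2 scale in KO1, KO2 and KO3, and between -0.0033 and 0.03 in the WT libraries. The part of this neighbourhood in the *Elmo2* result was not tested. *Kirrel*, the other gene called, had 134 tested neighbours with a median log2 fold change of 0.16. Of these, 16 were called higher and 8 lower, or 17.9%, below the share of all genes.

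**Figure D4:**
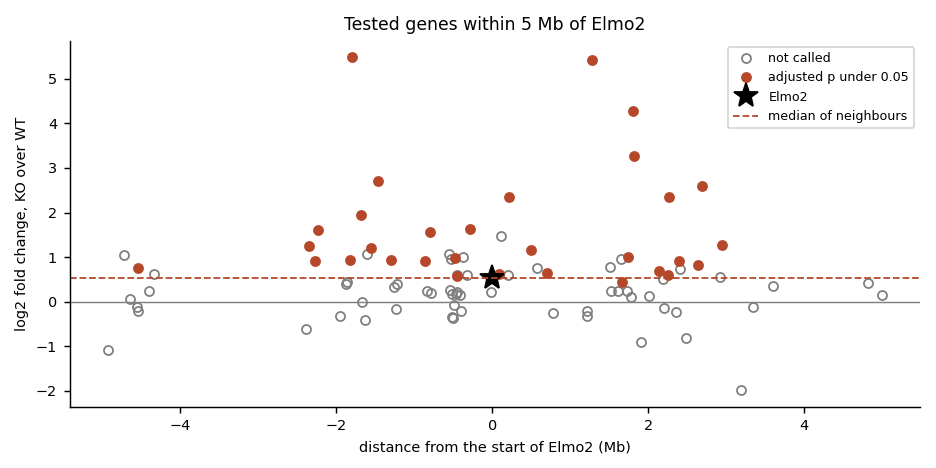
Each point is a tested gene within 5 Mb of the start of *Elmo2*, with its distance in Mb on the horizontal axis, the log2 of its KO over WT level on the vertical axis and filled points for an adjusted p under 0.05. The filled points all lie above 0, and the dashed line at the median, 0.53, passes through *Elmo2* (star).

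*Rac1* (ENSMUSG00000001847, chr5:143503634-143528036, minus strand), the GTPase that the Dock and Elmo proteins activate, was among the steadiest of the fusion genes in counts, with *Jam2* and *Elmo2*. It was at 210, 245 and 246 CPM in KO1, KO2 and KO3 and at 230, 240 and 210 CPM in WT1, WT2 and WT3. KO over WT gave a log2 fold change of 0.05 ± 0.13 (SE, adjusted p = 0.825), a difference smaller than the spread between libraries. In TPM it was at 35.0, 42.6 and 65.2 in KO1, KO2 and KO3 and at 41.9 to 46.0 in WT, so the KO libraries spread more in TPM than in CPM. The 3′ end of *Rac1* overlaps *Daglb* on the opposite strand, which had 554 to 813 counts per library, against 7518 to 10712 for *Rac1*, and the strand setting of the counting is not given in the sources used here. *Rac1* made up 96.6% to 99.2% of the summed TPM of *Rac1*, *Rac2* and *Rac3* in every library.

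The order of levels was read in TPM, which allows genes of different length to be compared. In WT, *Mymk* led at 219 ± 22.8 TPM, followed by *Mymx* at 54.0 ± 12.4, *Rac1* at 44.3 ± 2.15 and *Jam2* at 21.02 ± 0.883 (SD, n = 3 each). *Dock1* at 4.34 ± 0.981, *Kirrel* at 3.74 ± 0.986 and *Elmo2* at 3.57 ± 0.450 came next, then *Dock5* at 1.18 ± 0.311 and *Elmo1* at 0.940 ± 0.331. The ranges of *Mymx* and *Rac1*, of *Dock1* and *Kirrel*, of *Kirrel* and *Elmo2*, and of *Dock5* and *Elmo1* overlapped in WT, so those neighbours were not separated. In KO the means were 218 ± 126 for *Mymk*, 54.3 ± 25.4 for *Mymx*, 47.6 ± 15.7 for *Rac1*, 25.7 ± 4.24 for *Jam2*, 8.02 ± 2.98 for *Kirrel*, 6.07 ± 2.48 for *Dock1* and 5.30 ± 0.474 TPM for *Elmo2*. *Dock5* at 1.75 ± 0.748 and *Elmo1* at 0.883 ± 0.870 TPM again stood last by their means among the detected genes. The ranges of *Mymx* and *Rac1*, of *Dock1* and *Elmo2*, and of *Dock5* and *Elmo1* overlapped in KO. *Kirrel* thus stood above *Dock1* by its mean in KO and below it in WT, with overlapping ranges in both groups, and all 3 KO libraries had more *Kirrel* than *Elmo2*.

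E-boxes are the short sites that MyoD and myogenin bind, so the promoter windows of the fusion genes were searched for them. RefSeq windows (GRCm38.p6) of 300 bases, from 250 before to 50 after a start site, were matched for 5 of the 10 genes, *Dock1*, *Elmo1*, *Elmo2*, *Nphs1* and *Kirrel*, with 8 windows between them. The letters CANNTG, searched on both strands, were in 4 of the 8 windows and in 72.3% of all 32851 windows of that length. CAGCTG, which is 1 form of CANNTG, was in 1 of the 8 and in 16.3% of all. The windows of *Kirrel* and *Nphs1* held no match. 1 upstream site from each window that holds a match is shown with the matched letters in capitals, because *Dock1*, *Elmo1* and *Elmo2* encode partners in the same complex and had different patterns across the libraries.
Dock1, chr7:134670639-134670668, plus strand, 36 bases before the start: cccgccccgtccCACATGacaccgcctccg
Elmo1, chr13:20090423-20090452, plus strand, 72 bases before the start: cgtgtccgcgcgCAGGTGccgggggcggcg
Elmo2, chr2:165320969-165320998, minus strand, 160 bases before the start: atggagagtaagCACATGcgtgctagaggg
Elmo2, chr2:165316540-165316569, minus strand, 206 bases before the start: ctgcccgagctgCAGATGatagagaggctt
The *Dock1* site and the first *Elmo2* site share the letters CACATG. The window of the second *Elmo2* site also holds CACATG, 99 bases before the start, and the CAGCTG match, which are not printed. A match describes the sequence only, and no binding was measured.

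The rest of the fusion programme was followed in 6 companion lists of 102 genes, of which 93 were tested. 25 of the 93 were called (26.9%, against 22.7% of all genes), 14 as higher and 11 as lower in KO, and their median log2 fold change was -0.14. 7 of the 25 kept their call under all 11 alternatives run in counts: *Itga3*, *Arf6*, *Cyfip2*, *Dnm2*, *Ehd2*, *Il4ra* and *Fst*.

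**Figure D5:**
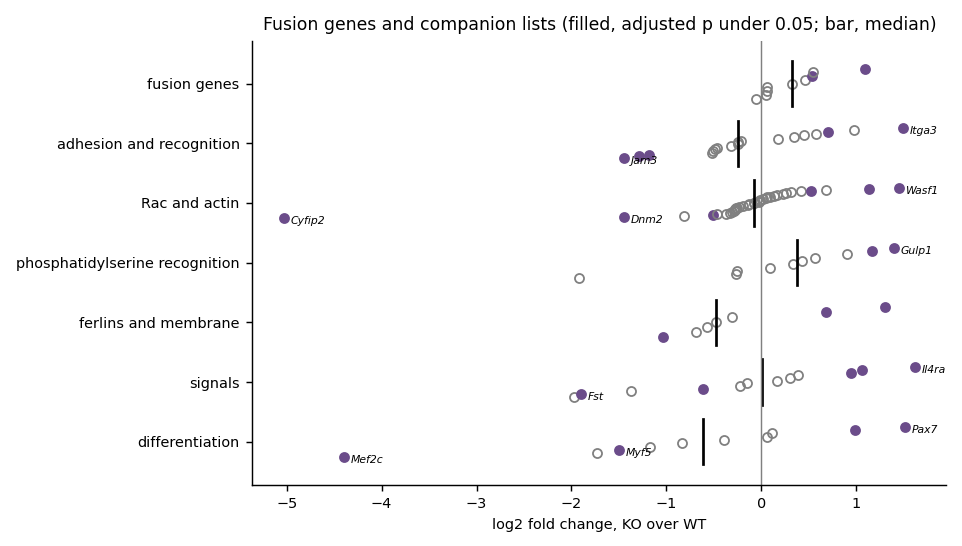
Each row is a gene list and each circle a tested gene, placed by the log2 of its KO over WT level, with filled circles for an adjusted p under 0.05 and a bar at the list's median. *Cyfip2* at -5.03 and *Mef2c* at -4.40 lie farthest from 0, and the fusion genes lie between -0.05 and 1.10.

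In the Rac and actin list, 3 of 36 tested genes rose, 3 fell and 30 did not pass the test, where the same rule called 22.7% of all genes, with a median log2 fold change of -0.08. *Cyfip2*, a subunit of the WAVE complex that carries the Rac signal to Arp2/3, was at 6.71, 0.709 and 0.463 CPM in KO1, KO2 and KO3 and at 80.4, 53.2 and 120 CPM in WT1, WT2 and WT3, which is 32.7-fold lower in KO (log2 fold change -5.03 ± 0.95 SE, adjusted p = 0.0109), and without KO1 the log2 fold change was -7.16 (adjusted p = 6.17e-05). No other tested gene of the list fell as far. *Dnm2*, the dynamin GTPase found at fusion sites, was 2.72-fold lower, at 113 to 173 CPM in KO against 325 to 399 CPM in WT (adjusted p = 0.00393). *Wasl*, which encodes N-WASP, also fell (log2 fold change -0.50, adjusted p = 0.0331). *Arf6*, a GTPase of membrane traffic, rose 2.20-fold, from 82.3 to 91.2 CPM in WT to 149 to 223 CPM in KO (adjusted p = 0.00519). *Wasf1*, another WAVE subunit, rose at a low level, from 0.426 to 1.16 CPM in WT to 1.51 to 2.46 CPM in KO (adjusted p = 0.0449). *Pak1*, a Rac effector kinase, rose by 0.53 on the log2 scale (adjusted p = 0.0325). The calls of *Wasl*, *Wasf1* and *Pak1* were each lost without KO2, WT1, WT2 or WT3, and those of *Wasf1* and *Pak1* also without KO3. A replicate block ended all of these calls too.

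In the adhesion list, 2 of 18 tested genes rose and 3 fell, beside 22.7% called among all genes, and the median log2 fold change was -0.25. *Itga3*, an integrin laminin receptor subunit, rose 2.82-fold, to 82.9, 166 and 115 CPM in KO1, KO2 and KO3 from 40.1 to 47.3 CPM in WT (adjusted p = 0.00635). *Cdh15*, or M-cadherin, the cadherin of myogenic cells, rose to 539 to 661 CPM from 317 to 424 CPM (log2 fold change 0.70, adjusted p = 0.0258). Beside *Jam3*, the metalloprotease gene *Adam12* (log2 fold change -1.28, adjusted p = 0.0354) and the adhesion gene *Mcam* (-1.18, adjusted p = 0.0119) fell. Without WT1 *Cdh15*, *Adam12* and *Mcam* lost their calls. *Cdh15* also lost its call without KO3 or WT3, and *Adam12* without WT2 or WT3, and both lost it with a replicate block. Without KO1 8 of the 18 genes were called, in a fit that called 30.6% of all genes, and the median was -0.43, whereas without KO2 it was -0.018.

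In the list for phosphatidylserine recognition, by which fusing myoblasts sense lipid exposed on a neighbour, 2 of 10 tested genes rose and none fell, against 12.1% of all genes called higher and 10.6% called lower, with a median of 0.38. *Gulp1*, an engulfment adaptor, was at 78.6, 187 and 140 CPM in KO1, KO2 and KO3 and at 49.6 to 53.7 CPM in WT (log2 fold change 1.40, adjusted p = 0.0132). *Mertk*, a receptor kinase that binds phosphatidylserine through bridging proteins, was at 4.67 to 7.12 CPM in KO and 2.28 to 3.14 CPM in WT (log2 fold change 1.17, adjusted p = 0.0194). Both lost their calls without WT1 or WT3, and *Mertk* also without KO3.

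In the list of ferlins and membrane-shaping proteins, 2 of 7 genes rose and 1 fell, where 22.7% of all genes were called, and the median was -0.48. *Ehd2*, an ATPase of caveolae, rose 2.46-fold, from 61.4 to 73.7 CPM in WT to 118 to 193 CPM in KO (adjusted p = 0.00571). *Myof*, or myoferlin, which is needed for the fusion of myoblasts to myotubes, rose 1.60-fold (adjusted p = 0.0207). *Bin1*, which bends membrane into T-tubules, fell 2.06-fold (adjusted p = 0.0397). The call for *Myof* was lost without WT1 or WT3, and that for *Bin1* when any library other than KO1 was left out. Without KO1 6 of the 7 genes were called, 2 higher and 4 lower, against 30.6% of all genes, and the median was -0.73. Without KO2 the median was -0.30.

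In the list of signals that act on fusion, 3 of 12 tested genes rose and 2 fell, compared with 22.7% of all genes called, and the median was 0.0041, between -0.10 and 0.080 with any library left out. *Il4ra*, the receptor for the interleukin that recruits myoblasts to myotubes, rose 3.07-fold, from 25.7, 19.8 and 24.2 CPM in WT1, WT2 and WT3 to 60.6, 74.3 and 79.0 CPM in KO1, KO2 and KO3 (adjusted p = 0.00147). *Fst*, which encodes the myostatin and activin antagonist follistatin, fell 3.74-fold, from 145 to 212 CPM in WT to 23.1 to 67.8 CPM in KO (adjusted p = 0.0111). *Wnt9a* (log2 fold change 1.06, adjusted p = 0.0314) and *Tgfbr2*, a receptor of the TGF-beta pathway that restrains fusion (0.94, adjusted p = 0.0240), rose. *Mapk14*, the p38 alpha kinase of differentiation, fell (-0.62, adjusted p = 0.0269). These 3 calls were lost without KO3, WT1 or WT3, and that of *Wnt9a* also with a replicate block.

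The levels of the differentiation genes, beside which the fusion genes were read, differed between the KO libraries. The 10 differentiation genes summed to 16337, 6435 and 5990 CPM in KO1, KO2 and KO3 and to between 11025 and 14653 CPM in WT, so KO1 was the highest of the 6 libraries and KO2 and KO3 the lowest. The rank of KO1 rested on *Acta1*, which gave 7017 CPM of its sum against 2955 to 4185 CPM in WT. Without *Acta1* the KO1 sum lay within the WT range, and KO2 and KO3 were still the lowest. In KO1 *Acta1*, at the values given above, and *Tnnt3*, the fast troponin gene, at 2379 CPM against 1138 to 1923 CPM in WT, were above every WT library. The myosin genes *Myh3*, at 4143 CPM against 4471 to 5808 CPM, and *Myh8*, at 304 CPM against 319 to 698 CPM, were below every WT library in KO1, as was *Mef2c*. The list also holds the progenitor genes *Pax7* and *Myf5*. 2 genes rose, *Pax7* (log2 fold change 1.52, adjusted p = 0.0223) and *Myod1* (0.99, adjusted p = 0.0141), 2 fell, *Mef2c* (-4.40, adjusted p = 0.0169) and *Myf5* (-1.50, adjusted p = 0.0303), and 6 did not pass the test, where all genes gave 22.7% called. *Pax7* marks muscle stem cells and *Myf5* and *Myod1* are determination factors. *Mef2c*, a partner of the myogenic factors, was at 17.1, 2.33 and 1.17 CPM in KO1, KO2 and KO3 and at 80.8, 162 and 189 CPM in WT1, WT2 and WT3, and without KO1 its log2 fold change was -6.35. *Myog*, or myogenin, which drives terminal differentiation, was at 1708, 1530 and 1004 CPM in KO and 1243 to 1463 CPM in WT (log2 fold change 0.06, adjusted p = 0.863). Each of the 4 calls was lost without WT3, and those of *Pax7*, *Myod1* and *Myf5* also without WT1. *Pax7* lost its call without KO2 too, and *Myf5* without KO3 or WT2, while without KO2 *Myf5* was at -2.11. Without KO1 8 of the 10 genes were called, 2 higher and 6 lower, against 30.6% of all genes, and the median moved from -0.61 to -1.28. The part of differentiation state in the *Mymk* levels was not tested.

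Markers of other cells were checked beside these results. The 5 myogenic markers summed to 3024 to 5282 CPM in KO and 3917 to 4405 CPM in WT, and all 5 were detected in every library. The adipocyte genes *Adipoq*, *Fabp4* and *Plin1*, the osteoblast genes *Sp7* and *Ibsp* and the leukocyte gene *Ptprc* were at or near 0. Other genes of these lists were detected: *Pparg* at 8.58 to 16.1 CPM and *Cd68* at 1.86 to 3.41 CPM over all libraries. The 4 osteoblast markers summed to 28.3, 16.1 and 34.0 CPM in KO1, KO2 and KO3 and to 12.2, 16.8 and 10.7 CPM in WT1, WT2 and WT3. Neither of the 2 that were tested passed: *Runx2* was at 15.6 to 33.7 CPM in KO and 10.5 to 16.5 CPM in WT (log2 fold change 0.90, adjusted p = 0.0640), and *Bglap* was at 5.03 CPM in KO1, 0.317 to 0.435 CPM in KO2 and KO3 and 0.0808 to 0.318 CPM in WT (3.29, adjusted p = 0.0749, and 0.95, adjusted p = 0.287, without KO1). The 3 fibroblast markers summed to 99.3 CPM in KO1, 16.4 to 19.7 CPM in the other KO libraries and 10.6 to 22.9 CPM in WT, with *Dcn* at 90.6 CPM in KO1 (log2 fold change 1.54, adjusted p = 0.259, and -0.68, adjusted p = 0.171, without KO1). 1 of the 2 tested, *Pdgfra*, rose (log2 fold change 1.17, adjusted p = 0.0257), a call lost without KO3, WT1, WT2 or WT3. The part of the fibroblast and osteoblast markers in the results above was not tested.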

How the data were processed

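The 3 KO and 3 WT libraries were made from total RNA after removal of rRNA. Per the study's methods, the authors ran an nf-core pipeline that aligned reads with STAR and mapped to the transcriptome with Salmon. The methods name StringTie as the source of the TPM values used to estimate cell fractions. The deposited data hold raw counts per gene and TPM. The submitters' processing notes name mm9 and the study's methods name GRCm39, so the build used upstream is open. The coordinates in the tables lie within 1000 bases of GRCm38 annotation at both ends for 93.3% of 45100 genes, and positions are given in GRCm38. For the count and TPM tables, tool versions and the strand setting are not given in the sources used here.

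From the deposited counts, genes passing filterByExpr (14828 of 30252 with a count) were tested with edgeR 4.0.16 (scaling by TMM, a trimmed mean of log ratios between libraries, quasi-likelihood, genotype as the only term, two-sided) in R 4.3.3, calling genes at a Benjamini-Hochberg adjusted p under 0.05. SE is the log2 fold change divided by the square root of F. From the deposited TPM, genes with at least 1 TPM in at least 3 libraries (11691) were tested as log2(TPM + 1) with limma 3.58.1, which understates changes of low genes. The tests across all genes were run on simulated counts with known changes and the same dispersion for every gene and both groups. There limma was given CPM in place of TPM. That check does not cover the wider spread among the KO libraries. Alternatives were DESeq2 1.42.0, other scalings, no filter, a pseudocount of 0.1, a replicate block and leaving out each library.

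The members and lists were chosen with earlier results of these data known. Named genes are all members, their paralogs, up to 5 called genes with the largest changes in each list, and the 5 genes most like *Mymk* and *Mymx*. *Wasl*, *Myog*, *Myh3*, *Myh8*, *Tnnt3* and single cell type markers were named after their values were seen. Depth, 33605258 to 40558740 counts, sets the floor of 3 counts, which covers counting error only. Libraries may be separate clones, but this is not stated for each one.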

Additional observations from a re-analysis of the deposited data

How the results depend on the processing

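With DESeq2, other size factors or another pseudocount, every fusion gene kept its direction and its side of the threshold. Replicate numbers are shared by KO and WT, and what they mark is not stated. The deviations of same-numbered libraries from their group means had correlations of 0.14, -0.12 and 0.0041. Not every library correlated best with its own number. With 3 libraries per group these values cannot decide whether the numbers mark a pairing. With a replicate block, 2520 of 14828 tested genes were called rather than 3361, and 1 of 9 fusion genes was called. *Mymk* (-0.15) and *Mymx* (-0.056) changed direction, and *Elmo2* missed the threshold (0.53, adjusted p = 0.0632). In that fit 3 of 18 adhesion and 3 of 36 Rac and actin genes were called. With no low-count filter, 4538 of 30252 tested genes were called (DESeq2, 4149 of 17329), where the main fit called 3361 of 14828, or 22.7%. In the unfiltered fit 1 of 10 fusion genes was called and *Elmo2* missed the threshold (0.51, adjusted p = 0.0653). The same fit called 4 of 13 phosphatidylserine, 5 of 7 ferlin and 7 of 10 differentiation genes. DESeq2 and no filter both moved the phosphatidylserine median to 0.31 and the signals median to 0.14. With no low-value filter in TPM, 1075 of 27302 tested genes were called, where the main fit in TPM called 2394 of 11691. There 0 of 9 fusion genes were called, and *Kirrel* missed the threshold (0.90, adjusted p = 0.143). The cause of these changes was not tested.

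Leaving out 1 library at a time moved the genes called between 933 and 4712 in counts and between 484 and 3156 in TPM, and the fusion genes called between 0 and 4 in both. The log2 fold changes in counts ran from -0.65 to 0.34 (*Mymk*), -0.46 to 0.38 (*Mymx*), 0.29 to 0.72 (*Dock1*), 0.33 to 0.84 (*Dock5*), -1.23 to 0.44 (*Elmo1*), 0.46 to 0.58 (*Elmo2*), -0.036 to 0.11 (*Rac1*) and 0.87 to 1.30 (*Kirrel*). In TPM they ran from -0.58 to 0.092 (*Mymk*), -0.41 to 0.25 (*Mymx*), 0.15 to 0.68 (*Dock1*), 0.14 to 0.55 (*Dock5*), 0.40 to 0.54 (*Elmo2*), -0.19 to 0.25 (*Rac1*), 0.64 to 1.08 (*Kirrel*) and 0.14 to 0.36 (*Jam2*). Genes called ran from 1 to 8 (adhesion), 3 to 7 (Rac and actin), 0 to 3 (phosphatidylserine), 1 to 6 (ferlins), 2 to 7 (signals) and 0 to 8 (differentiation). Medians ran from -0.43 to -0.018 (adhesion), -0.73 to -0.30 (ferlins), -0.10 to 0.080 (signals), -0.17 to -0.058 (Rac and actin), 0.26 to 0.46 (phosphatidylserine) and -1.28 to -0.36 (differentiation). The difference in the *Dock1* share ran from -9.26 to 4.19 points and that in the *Mymx* to *Mymk* ratio from -0.0288 to 0.0463. Depth limits *Nphs1*, with 1 count in all.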

Other observations

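The chromosomal neighbourhoods of the other fusion genes differed in how far they moved with genotype. The 60 tested genes within 5 Mb of *Dock5* had a median log2 fold change of 0.38, with 16 called higher in KO and 1 lower, which makes 28.3% called where all genes gave 22.7%. The 98 around *Rac1* had a median of 0.19, with 13 higher and 3 lower (16.3%), and the 168 around *Mymk* a median of 0.13, with 21 higher and 9 lower (17.9%), both shares below that of all genes. Those around *Mymx* (85 genes, 0.0059) and *Nphs1* (141 genes, 0.073, with 17 higher and 3 lower, or 14.2%) lay near the median of all genes, 0.03, and those around *Dock1* (37 genes, -0.17) and *Jam2* (15 genes, -0.16) lay below it.

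The neighbourhood of *Elmo1* moved in opposite directions in different KO libraries. Its 79 genes deviated from their WT means by medians of -0.25, 0.56 and 0.24 on the log2 scale in KO1, KO2 and KO3, and by -0.10 to 0.10 in the WT libraries. Over all libraries their median log2 fold change was 0.29, yet 2 were called higher in KO and 10 lower. That makes 15.2% called where all genes gave 22.7%. *Elmo1* itself had the same order in KO, lowest in KO1 at 0.811 CPM and highest in KO2 at 9.84 CPM. This was seen after the values were known, and the part of the neighbourhood in the *Elmo1* levels was not tested.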
